A study of Mus musculus with 6 samples.

Results

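The liver supplies most proteins of the blood plasma, and 46 genes of these families had values in the deposited expression table of 3201 genes. They were chosen by name among its protein-coding genes, with earlier results of these data known. Among them are serum amyloid A, haptoglobin, hemopexin, lipocalin, inter-alpha-trypsin inhibitor, hepcidin and coagulation factor genes. Complement, serpin, apolipoprotein, major urinary protein and insulin-like growth factor (IGF) binding protein genes were also included. The names searched for covered orosomucoid and metallothionein genes too, but none of these is among the 46. Values come from RNA-seq of liver tissue of male mice on a C57BL/6 background, all of which had 1 h of warm ischemia of 70% of the liver and 6 h of reperfusion (I/R). The study's methods do not say which lobes were sequenced, so the share of ischemic tissue in a sample is not known. The 3 control livers, labelled IR, carry floxed Fgf18 without Cre (Fgf18 f/f), a genotype taken from the study's methods because the label gives the treatment instead. The 3 knockout livers, labelled 18KO (Fgf18△HSC), carry the same floxed alleles with Cre driven by the GFAP promoter, which was used to delete Fgf18 in hepatic stellate cells (HSCs). Age is not given in the sources used here, no liver without I/R was analysed, and the level of Fgf18 itself was not analysed here, so the genotypes were not checked against the deleted gene.

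Plasma protein genes are expressed mainly in hepatocytes. In the acute phase response, interleukin-6 acting through the transcription factor STAT3, and interleukin-1 and tumor necrosis factor acting through NF-kB and C/EBP factors, raise the transcription of serum amyloid A, haptoglobin, hemopexin, hepcidin and several serpins. The same secretory program holds inhibitors that limit proteolysis, carriers of haem, hormones and lipid, and the proteases and regulators of the complement and coagulation cascades. Not every name that fits the rule belongs to a secreted liver protein. Serpinb8 is a cytoplasmic serpin, Serpinh1 is a collagen chaperone of the endoplasmic reticulum, C5ar1, C5ar2 and C3ar1 are receptors of leukocytes, and C2cd6 is no complement gene at all.

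The table had been filtered by the authors before deposit: each listed gene showed, in their own comparison, a log2 change larger than 1 in size with p below 0.05 before adjustment, and that comparison was made on these same livers. A test of the same difference is therefore no independent evidence for any member. Fibrinogen, orosomucoid and metallothionein genes were searched for by name and none was in the filtered table. The acute phase genes described here are thus only those that had passed the authors' filter. Values are in TPM (reads scaled by gene length and by the total of the library). Multiplied by the exon length of the gene, 92.0 to 92.2% of the values came out as whole reads, and a single read per kb of gene length stood for 0.0374 to 0.0555 TPM in Fgf18 f/f livers against 0.0482 to 0.0655 TPM in Fgf18△HSC livers. Groups were compared with limma on log2(TPM + 0.1) across the 3201 genes. A call needed both an adjusted p (Benjamini-Hochberg) below 0.05 and a log2 change larger than 1 in either direction. Fold changes on this scale understate those of low genes. None of 7 hepatocyte marker genes on a list was in the table, so hepatocyte content was not analysed here, and in bulk tissue fewer cells of a type and less RNA per cell cannot be told apart.

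Of the 46 members, 31 were called lower in Fgf18△HSC livers, 10 were called higher and 5 were not called. Over all listed genes 71.7% were called, 30.0% lower and 41.6% higher. The median log2 fold change was -1.22 over the members and 0.88 over all listed genes. Direction followed abundance. All 21 members with a mean of at least 10 TPM were lower, as were 80.3% of the 467 listed genes at that level (14.6% were higher and 94.9% were called in all), whereas of the 13 members under 1 TPM 6 were called higher and 3 lower, beside 45.6% and 9.74% of the 1777 listed genes at that level (55.4% called in all). Of the 12 members from 1 to 10 TPM 4 were called higher and 7 lower, beside 47.4 and 43.2% of the 957 listed genes at that level (90.6% called in all). The lower level of the abundant members is therefore shared with most listed genes at that level and is not read as particular to plasma proteins. All livers of one genotype lay above all livers of the other in 45 of the 46 members, beside 96.3% of listed genes (98.5% at 10 TPM or more, 99.0% from 1 to 10 TPM and 94.3% under 1 TPM). Together the members made up 15485, 14461 and 15387 TPM in Fgf18 f/f livers against 4868, 6556 and 4880 TPM in Fgf18△HSC livers. The second Fgf18△HSC liver was thus above the others of its group.

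**Figure D1:**
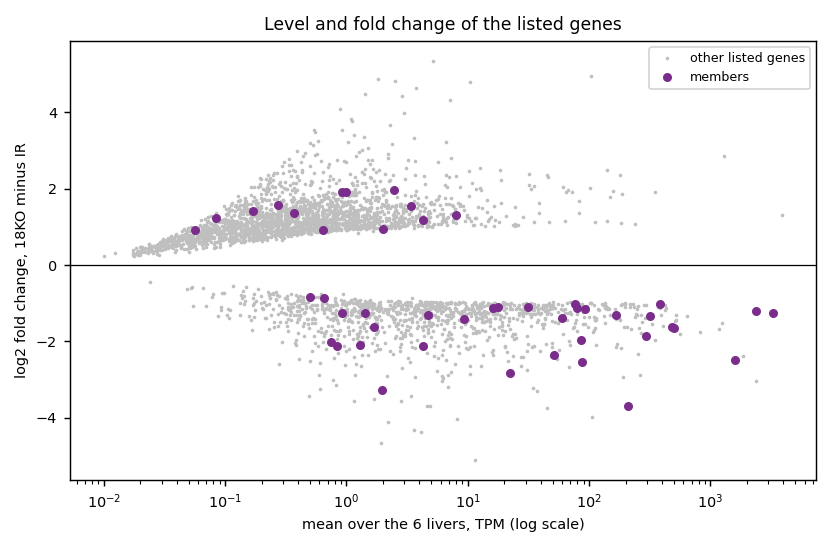
Mean level over the 6 livers (TPM, log scale) against the log2 fold change (Fgf18△HSC minus Fgf18 f/f) of each listed gene, members in purple and all other genes in grey. The 21 members at 10 TPM or more all lie below 0, and genes with small changes had been left out before deposit.

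The higher calls depended on how libraries were scaled. When each liver was divided by the median ratio of its listed genes to their mean, the fold changes of all genes shifted by a median of -0.88 on the log2 scale. The listed genes, all filtered for change, had a median of 0.88, which this scaling takes away. A loss of higher calls is thus built into this step, and it does not show which scaling is right. With this scaling 32 members were lower and 3 higher, Serpinb8, Serpine2 and Serpina3a, and over all genes the share of higher calls went from 58.1 to 20.1%. All 21 members at 10 TPM or more were called lower here too. The same step moved them further down (Hp from -1.20 to -2.24), so it could hardly end a lower call, and none is read as a check.

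**Figure D2:**
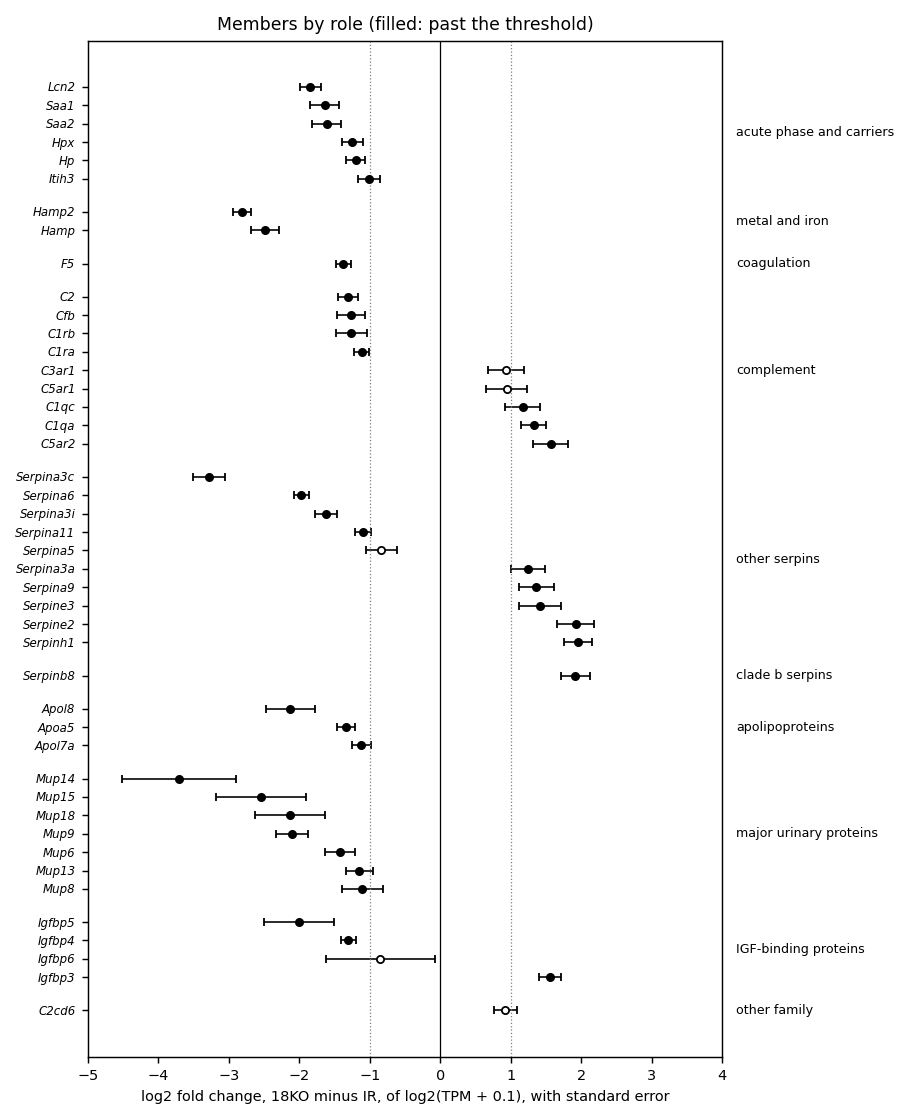
Log2 fold change of 44 of the 46 members (Fgf18△HSC minus Fgf18 f/f, on log2(TPM + 0.1)) with its standard error, arranged by role, with filled points for members past the threshold and dotted lines at a log2 fold change of 1 in either direction. Every acute phase, hepcidin, apolipoprotein and major urinary protein gene lies to the left of 0, and the complement and serpin genes lie on both sides.

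The windows before the RefSeq start sites of 6 genes that were lower in Fgf18△HSC livers are shown because their letters match sites of the factors that act in the acute phase. Each runs from base -230 to base -51 before the RefSeq start of the gene, read in the direction of transcription on GRCm38.p6, and overlaps no annotated exon. The window of Hamp2 lies inside the gene span given below (30922372 to 30924681), because that annotation places the start further upstream. Capitals mark a match to the STAT letters TTCNNNGAA in Hamp and Hamp2, to the C/EBP letters TTGCNNAA in Saa1, Saa2 and Hpx, and to the NF-kB letters GGG and TTTCC with any 2 bases between them (the first) and the STAT letters (the second) in Serpina3i. The windows are chr7:30944080-30944259 (minus strand) for Hamp, chr7:30924232-30924411 (minus) for Hamp2, chr7:46743031-46743210 (minus) for Saa1, chr7:46751603-46751782 (plus) for Saa2, chr7:105600167-105600346 (minus) for Hpx and chr12:104262892-104263071 (plus) for Serpina3i.
Hamp: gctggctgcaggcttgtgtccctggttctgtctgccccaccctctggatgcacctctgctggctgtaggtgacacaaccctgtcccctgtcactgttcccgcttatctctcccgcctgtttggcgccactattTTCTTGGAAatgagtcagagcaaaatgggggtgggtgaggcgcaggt
Hamp2: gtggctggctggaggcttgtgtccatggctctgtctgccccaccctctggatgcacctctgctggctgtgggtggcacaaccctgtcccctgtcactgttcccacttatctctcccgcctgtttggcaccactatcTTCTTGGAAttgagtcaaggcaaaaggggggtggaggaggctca
Saa1: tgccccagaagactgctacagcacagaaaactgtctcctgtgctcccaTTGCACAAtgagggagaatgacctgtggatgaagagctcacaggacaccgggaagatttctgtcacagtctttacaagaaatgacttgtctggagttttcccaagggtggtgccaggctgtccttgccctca
Saa2: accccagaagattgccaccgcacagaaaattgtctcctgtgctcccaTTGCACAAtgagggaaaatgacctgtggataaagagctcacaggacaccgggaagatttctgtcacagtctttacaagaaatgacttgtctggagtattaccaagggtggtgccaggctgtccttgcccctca
Hpx: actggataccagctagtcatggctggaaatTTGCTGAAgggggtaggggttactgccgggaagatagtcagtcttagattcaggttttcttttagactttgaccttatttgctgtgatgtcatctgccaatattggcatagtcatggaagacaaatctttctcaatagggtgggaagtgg
Serpina3i: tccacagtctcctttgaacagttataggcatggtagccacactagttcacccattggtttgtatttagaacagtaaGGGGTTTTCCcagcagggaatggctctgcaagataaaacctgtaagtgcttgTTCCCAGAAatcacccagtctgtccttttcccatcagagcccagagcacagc

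The pairs Hamp and Hamp2, and Saa1 and Saa2, are neighbouring duplicates with nearly the same sequence before their RefSeq starts. Aligned over 250 bases, the windows of Hamp and Hamp2 were identical at 89.7% of columns and those of Saa1 and Saa2 at 94.8%, and the marked site is the same in both members of each pair. RefSeq windows of 300 bases (250 before to 50 after the start) were found for 36 of the 46 members. Among the missing entries were those for C1qa, C2, Cfb, Hp, Mup8, Mup13, Serpina6 and Serpina9. Counted on both strands, the STAT letters occurred in 6 of the 36 members and in 8.30% of all 32851 windows. The 6 were C1ra, C1rb, Hamp, Hamp2, Serpina11 and Serpina3i, and each of them was called lower, as were 23 of the 36 members with a window (63.9%). The 6 include the duplicate pairs Hamp and Hamp2, and C1ra and C1rb, so the count is not read as a result about STAT sites. The C/EBP letters occurred in 8 of the 36 and in 10.8% of all windows. Of those 8, C1ra, C1rb, Hpx, Lcn2, Saa1 and Saa2 were called lower, C5ar2 was called higher and Serpina5 was not called. In C1ra and C1rb the same sites, TTATGCAA and TTCCCTGAA, lay in both genes, but from base 16 to 40 after the annotated start of C1ra and from base -135 to -111 before that of C1rb. The NF-kB letters were found in 2 members (1.63% of all windows) and the E-box CACGTG in 2, Apoa5 and C2cd6 (7.15%). The metal response element letters TGCACNC or TGCGCNC were found in 4 (25.7%), and the letters AGGTCA of nuclear receptor sites, with any 2 bases before them, in 7 (16.2%). No match to the STAT, C/EBP or NF-kB letters overlapped a match to a different one of these sets of letters. In Serpina5 the C/EBP letters matched on both strands at the same bases, -242 to -235. These matches are a description of letters, and no test was run on them.

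All 6 listed acute phase proteins and plasma carriers fell in Fgf18△HSC livers, to between 28.0 and 50.2% of their mean in Fgf18 f/f livers. At this level, 10 TPM or more, 80.3% of all listed genes were called lower, so the count is not read as particular to them. Hemopexin (Hpx, chromosome 7, 105591613 to 105600137), which binds free haem, was the most abundant member. Its level was 4789, 4329 and 4575 TPM in Fgf18 f/f livers against 1814, 2360.0 and 1657 TPM in Fgf18△HSC livers, with a log2 fold change of -1.25 ± 0.15 (standard error, SE, limma adjusted p = 0.000185). Haptoglobin (Hp, chromosome 8, 109575128 to 109579172), which binds free haemoglobin, had 3413, 3318 and 3221 TPM in Fgf18 f/f livers against 1333, 1715 and 1309.7 TPM in Fgf18△HSC livers. It fell by 1.20 on the log2 scale (SE 0.14, limma adjusted p = 0.000129). In both genes the groups lay far apart, and within the knockouts the second liver was the highest. Globin messages moved the other way in the same livers: over 3 of 4 red cell markers on a list, the summed level was 61.1 to 102 TPM in Fgf18 f/f livers against 355 to 467 TPM in Fgf18△HSC livers. Their part in the haptoglobin and hemopexin values was not tested.

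Serum amyloid A proteins are small apolipoproteins that join high-density lipoprotein in the acute phase. Saa1 (chromosome 7, 46740497 to 46742980) had 829.7, 792 and 663 TPM in Fgf18 f/f livers against 203, 340.0 and 207 TPM in Fgf18△HSC livers (log2 fold change -1.64, SE 0.21, limma adjusted p = 0.000202). Saa2 (chromosome 7, 46751790 to 46754313) had 753, 751 and 663 TPM against 196, 336 and 199.5 TPM (log2 fold change -1.61, SE 0.21, limma adjusted p = 0.000221). The duplicates were nearly equal in every liver, with a ratio of Saa1 to Saa2 between 0.999 and 1.10. Of the 100-base stretches in their messages, 8.96% of those of Saa1 and 8.63% of those of Saa2 also occur in the other gene. The second knockout liver again stood above the other two, and without it the fold change of Saa1 was -1.89.

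Lipocalin 2 (Lcn2, chromosome 2, 32384633 to 32388252), which binds bacterial siderophores, changed most in this group. It had 493, 480.3 and 401 TPM in Fgf18 f/f livers against 106, 149 and 129.8 TPM in Fgf18△HSC livers (log2 fold change -1.84, SE 0.15, limma adjusted p = 3.55e-05). Neutrophil granules also hold this protein, and of 9 neutrophil markers on a list 4 were in the table. The granule genes Ngp and Camp were lower in Fgf18△HSC livers (9.16 and 1.45 TPM against 0.646 and 0.0944 TPM), and Cxcr2 and Mmp8 were higher (2.28 and 3.16 TPM against 6.35 and 14.2 TPM). The summed level of the 4, which hold both directions, was 15.3 to 17.2 TPM in Fgf18 f/f livers against 12.1 to 29.9 TPM in Fgf18△HSC livers. The part of neutrophils in the Lcn2 value was not tested. Itih3 (chromosome 14, 30908572 to 30923760), a heavy chain that is carried with hyaluronan, changed least. Its level was 546, 524 and 456 TPM in Fgf18 f/f livers against 235, 314 and 217 TPM in Fgf18△HSC livers, and the log2 fold change of -1.01 ± 0.16 (SE, limma adjusted p = 0.000567) was under 1 in size without Fgf18 f/f liver 1 (-0.96) or 2 (-0.98), and without Fgf18△HSC liver 1 (-0.96) or 3 (-0.90).

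**Figure D3:**
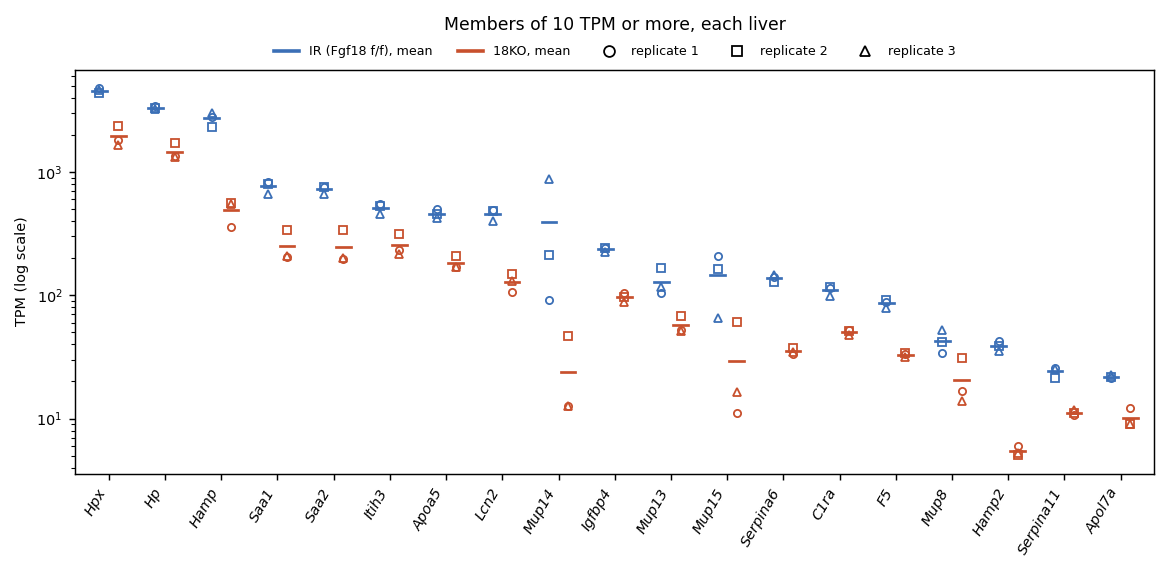
Level in each liver (TPM, log scale) of 19 of the 21 members with a mean of at least 10 TPM, ordered by that mean, with a horizontal bar for the mean of the 3 livers of a genotype and a symbol for each replicate number. Each gene is lower in Fgf18△HSC livers (orange) than in Fgf18 f/f livers (blue) with no overlap, and the squares of the second Fgf18△HSC liver are often the highest of their group.

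The second Fgf18△HSC liver was the highest of its group in each of the 6 acute phase and carrier genes, and in 15 of the 21 members at 10 TPM or more (71.4%). Among the 467 listed genes at that level it was the highest in 41.1%. The first Fgf18 f/f liver was the highest of its group in each of the 6 acute phase and carrier genes, in 10 of the 21 members at 10 TPM or more (47.6%) and in 46.5% of the 467 listed genes at that level. The median coefficient of variation of the 6 acute phase and carrier genes was 8.14% among the Fgf18 f/f livers and 19.5% among the Fgf18△HSC livers.

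Among the 21 members at 10 TPM or more, Mup14, Hamp2, Mup15 and Hamp had the largest falls, in that order. Hepcidin is the hepatocyte hormone that removes the iron exporter ferroportin from cell surfaces, and it is induced by iron through bone morphogenetic proteins and in inflammation through STAT3. Hamp (chromosome 7, 30942368 to 30944032) had 2812, 2329 and 2995 TPM in Fgf18 f/f livers against 359, 562 and 551 TPM in Fgf18△HSC livers, 18.1% of the Fgf18 f/f mean (log2 fold change -2.49, SE 0.20, limma adjusted p = 2.97e-05). The duplicate Hamp2 (chromosome 7, 30922372 to 30924681), whose product is not known to act on iron, had 42.7, 38.4 and 35.4 TPM against 5.95, 5.05 and 5.29 TPM (log2 fold change -2.82, SE 0.12, limma adjusted p = 7.49e-06). Hamp was 60.3 to 111 times as abundant as Hamp2 across the 6 livers, and no 100-base stretch was shared between their messages. Of 23 partner genes of metal and iron handling on a list, 6 were in the table, 3 called lower, 2 higher and 1 not called. Their means were 0.876 to 146 TPM, a range over which the share of listed genes called lower went from 9.74% under 1 TPM to 80.3% at 10 TPM or more. Ferroportin (Slc40a1), the target of hepcidin, had 7.24, 6.95 and 8.23 TPM in Fgf18 f/f livers against 3.28, 3.01 and 3.60 TPM in Fgf18△HSC livers (log2 fold change -1.16, SE 0.13, limma adjusted p = 0.000136). The zinc and iron importer Slc39a14, which interleukin-6 induces in the acute phase, had 202 ± 20.1 TPM (SD, n = 3) and 90.9 ± 14.4 TPM (SD, n = 3), with a log2 fold change of -1.16 in limma. The zinc importer Slc39a10 had the largest change of the list and was higher, with a log2 fold change of 2.31 (0.462 ± 0.0672 against 2.68 ± 0.293 TPM, SD, n = 3 livers each). The manganese exporter Slc30a10 was also higher (log2 fold change 1.16), and the zinc importer Slc39a4 was lower (-1.29). Bmp6, a bone morphogenetic protein that induces hepcidin, had 0.565, 0.460 and 0.641 TPM in Fgf18 f/f livers against 1.001, 0.906 and 1.68 TPM in Fgf18△HSC livers. It was not called (log2 fold change 0.95, limma adjusted p = 0.00803), and its values lay in the opposite direction to those of Hamp.

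Of 23 genes of interleukin-6 and acute phase signaling on a list drawn up with earlier results of these data known, 10 were in the table, 9 of them called lower, none higher, and Cebpa was not called (log2 fold change -0.99). These 10 had means from 1.83 to 191 TPM, where 43.2% (1 to 10 TPM) and 80.3% (10 TPM or more) of all listed genes were called lower. Socs3, the feedback inhibitor that STAT3 induces, had 183, 168 and 148 TPM in Fgf18 f/f livers against 46.7, 43.9 and 57.9 TPM in Fgf18△HSC livers (log2 fold change -1.75, SE 0.14, limma adjusted p = 3.21e-05). Here the second knockout liver was the lowest of its group, whereas in Cebpb and Il1rn of the same list it was the highest. Cebpb and Cebpd, transcription factors of the acute phase, fell by 1.35 and 1.21 on the log2 scale (SEs 0.12 and 0.11, limma adjusted p = 4.72e-05 and 5e-05). Socs2, which growth hormone induces through another STAT factor, was at 17.1 ± 1.596 against 3.86 ± 1.04 TPM (SD, n = 3 livers each, limma adjusted p = 4.94e-05).

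The complement genes held both directions. The proteases C1ra, C1rb, C2 and Cfb were lower in Fgf18△HSC livers, each past the threshold, but with a pseudocount of 1 C1rb (-0.64) and Cfb (-0.76) did not pass. Of all listed genes, 80.3% were called lower at 10 TPM or more, the level of C1ra. From 1 to 10 TPM, the level of C2 and Cfb, it was 43.2%, and under 1 TPM, the level of C1rb, 9.74%. The recognition chains C1qa and C1qc and the receptors C3ar1, C5ar1 and C5ar2, which macrophages and other leukocytes express, had positive fold changes, 3 of the 5 past the threshold, with a median of 1.17. Their means were 0.272 to 7.99 TPM, where 45.6% (under 1 TPM) and 47.4% (1 to 10 TPM) of all listed genes were called higher, so the count is not read as particular to them. This division by known role was made after the values had been seen, and no test of it was made. Without the first Fgf18△HSC liver all 5 passed, while in the rescaled livers none of the 5 did, and the fold change of C5ar1 turned to -0.040.

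C1ra (chromosome 6, 124512405 to 124523443), a protease of the C1 complex, had 114, 117 and 97.9 TPM in Fgf18 f/f livers against 52.2, 51.5 and 47.5 TPM in Fgf18△HSC livers (log2 fold change -1.12, SE 0.11, limma adjusted p = 7.37e-05). Its duplicate C1rb was 76.6 to 114 times less abundant and had a log2 fold change of -1.26 ± 0.22 (SE, limma adjusted p = 0.000933) on 20 to 95 reads per liver. Of the 100-base stretches of C1ra and C1rb, 35.95 and 42.7% also occur in another gene, mostly the duplicate, and the source of such reads cannot be told apart. C2 and Cfb, neighbours on chromosome 17 (34862604 to 34898265 and 34856374 to 34862518), supply the catalytic subunits of the classical and alternative convertases. C2 had 6.42, 6.45 and 7.17 TPM in Fgf18 f/f livers against 2.71, 2.96 and 2.27 TPM in Fgf18△HSC livers (log2 fold change -1.31, SE 0.14, limma adjusted p = 0.000106). Cfb had 2.43, 2.08 and 1.61 TPM against 0.6996, 0.788 and 0.859 TPM (log2 fold change -1.27, SE 0.20, limma adjusted p = 0.000569). An annotated readthrough gene, Gm20547, contains 35.5% of the 100-base stretches of C2 and 66.9% of those of Cfb, and how reads on the shared stretches were counted is not given in the sources used here.

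C1qa (chromosome 4, 136895917 to 136898803) had 4.74, 4.19 and 4.48 TPM in Fgf18 f/f livers against 8.76, 13.2 and 12.5 TPM in Fgf18△HSC livers (log2 fold change 1.32, SE 0.17, limma adjusted p = 0.000235). C1qc (chromosome 4, 136889804 to 136893065) had 2.998, 1.86 and 2.96 TPM against 4.37, 7.29 and 6.31 TPM (log2 fold change 1.17, SE 0.25, limma adjusted p = 0.0024), and 0.95 without the second Fgf18 f/f liver. Among the knockouts, both chains were lowest in the first liver, which still lay above every Fgf18 f/f liver. C5ar2 (chromosome 7, 16234585 to 16244154), a receptor of the C5a fragment, had 0.0420, 0.0882 and 0.140 TPM against 0.406, 0.404 and 0.554 TPM (log2 fold change 1.57, SE 0.25, limma adjusted p = 0.000645), on 4 to 9 reads in the Fgf18 f/f livers. Its neighbour C5ar1, the main receptor of C5a, had 1.53, 1.01 and 1.36 TPM against 2.16, 1.91 and 4.01 TPM. The fold change of C5ar1, 0.94 (SE 0.29, limma adjusted p = 0.0133), missed the limit on size, as did that of the C3a receptor C3ar1, 0.93 (SE 0.25, limma adjusted p = 0.00789). C1qa is itself one of 8 Kupffer cell markers on a list, of which only Adgre1 was also in the table. Adgre1 had 0.276, 0.332 and 0.376 TPM in Fgf18 f/f livers against 0.416, 0.686 and 0.950 TPM in Fgf18△HSC livers, not called. Monocyte markers moved with these genes too: Chil3 and Ccr2, 2 of 4 on the list, summed to 1.07 to 1.53 TPM and 4.01 to 12.02 TPM. Their part in the C1q and receptor values was not tested. Of 28 partner genes of complement on a list, 6 were in the table, 4 called higher, 1 lower and 1 not called. Those higher were Fcna, Itgam, Cd46 and Colec10, each with a mean under 10 TPM, where 45.6 to 47.4% of listed genes were called higher. Mbl2 was not called at a log2 fold change of -0.99.

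**Figure D4:**
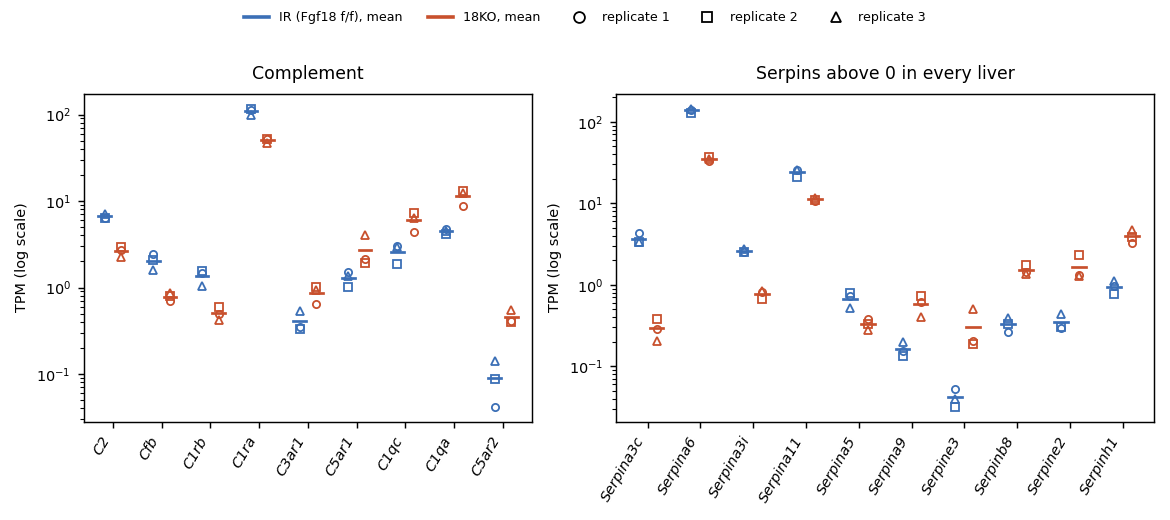
Level in each liver (TPM, log scale) of 9 complement members and of 10 serpin members that were above 0 in every liver, each ordered by fold change, with bars for the means of 3 livers. On the left of each panel the genes are lower in Fgf18△HSC livers (orange) and on the right higher, and most of the higher genes lie under 10 TPM.

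The serpins, a family of protease inhibitors, include several members that have taken up other roles. Among the 11 outside clade b, 5 fell, 5 rose and 1 was not called. Those that fell had means above 1 TPM, where 43.2% (1 to 10 TPM) and 80.3% (10 TPM or more) of listed genes were called lower. Those that rose other than Serpinh1 were under 1 TPM, where 45.6% were called higher, so the split is not read as particular to the serpins. Serpina3c (chromosome 12, 104146382 to 104153870), a mouse relative of the acute phase inhibitor antichymotrypsin, changed most. It had 4.27, 3.39 and 3.34 TPM in Fgf18 f/f livers against 0.283, 0.384 and 0.206 TPM in Fgf18△HSC livers, 7.94% of the Fgf18 f/f mean (log2 fold change -3.28, SE 0.22, limma adjusted p = 1.81e-05). Its neighbour Serpina3i (104263122 to 104269372) fell less, from 2.54, 2.54 and 2.72 TPM to 0.824, 0.677 and 0.841 TPM (log2 fold change -1.62, SE 0.16, limma adjusted p = 7.08e-05). The ratio of Serpina3c to Serpina3i was 1.23 to 1.68 in Fgf18 f/f livers against 0.244 to 0.568 in Fgf18△HSC livers, without overlap. Serpina3a, in the same cluster, went the other way on very few reads: 1, 0 and 0 in Fgf18 f/f livers against 6, 7 and 3 in Fgf18△HSC livers, at least 2.18-fold higher when the controls are set to 3 reads per library. The same cluster on chromosome 12 thus held genes of both directions.

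Serpine2 (chromosome 1, 79794197 to 79861180), a thrombin and urokinase inhibitor of mesenchymal cells, was of low level and higher, with 0.297, 0.303 and 0.442 TPM in Fgf18 f/f livers against 1.31, 2.29 and 1.30 TPM in Fgf18△HSC livers (log2 fold change 1.92, SE 0.27, limma adjusted p = 0.000328).

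Serpina6 (chromosome 12, 103646630 to 103657212) encodes corticosteroid-binding globulin, the plasma carrier of glucocorticoids. It had 139.7, 129 and 146 TPM in Fgf18 f/f livers against 33.3, 37.4 and 34.7 TPM in Fgf18△HSC livers, 25.4% of the Fgf18 f/f mean (log2 fold change -1.97, SE 0.10, limma adjusted p = 1.15e-05). Serpina11 (chromosome 12, 103980243 to 103989957) had 25.6, 21.2 and 25.5 TPM against 10.7, 11.1 and 11.7 TPM (log2 fold change -1.10, SE 0.12, limma adjusted p = 0.000101). Serpina5, the protein C inhibitor, stayed outside the threshold at a log2 fold change of -0.84 ± 0.22 (SE, limma adjusted p = 0.00724) on 11 to 42 reads per liver.

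Serpinh1 (chromosome 7, 99345376 to 99353239) encodes the collagen chaperone HSP47 of collagen-producing cells. It had 0.963, 0.772 and 1.11 TPM in Fgf18 f/f livers against 3.28, 3.91 and 4.76 TPM in Fgf18△HSC livers (log2 fold change 1.96, SE 0.20, limma adjusted p = 7.73e-05). Serpinb8, a cytoplasmic inhibitor of furin, had 0.265, 0.328 and 0.394 TPM against 1.42, 1.75 and 1.37 TPM (log2 fold change 1.91, SE 0.21, limma adjusted p = 9.42e-05). Serpina9, known from germinal centre B cells, had 11 to 15 reads in Fgf18 f/f livers against 29 to 47 in Fgf18△HSC livers (log2 fold change 1.36, limma adjusted p = 0.00123). Of 3 B cell markers on a list, Ighm alone was in the table and was called higher, at 3.07 to 4.71 TPM in Fgf18 f/f livers against 9.41 to 14.4 TPM in Fgf18△HSC livers, and its part in the Serpina9 value was not tested. Serpine3 had 2, 1 and 1 reads against 6, 4 and 14, at least 3.05-fold higher by the same floor. That bound rested on the third Fgf18△HSC liver and was at least 2.0-fold without it. Of 8 HSC markers on a list, 6 were in the table, 4 of them called higher and none lower, with means of 0.346 to 2.09 TPM, where 45.6 to 47.4% of all listed genes were called higher. Their summed level was 2.46 to 3.53 TPM in Fgf18 f/f livers against 7.86 to 12.2 TPM in Fgf18△HSC livers. Their part in these serpin values was not tested. In the rescaled livers Serpinh1, Serpina9 and Serpine3 no longer passed (0.99, 0.63 and 0.94 on the log2 scale).

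Factor V (F5, chromosome 1, 164151838 to 164220277), the cofactor of factor Xa, was the 1 coagulation member. It had 88.2, 91.4 and 78.8 TPM in Fgf18 f/f livers against 33.3, 34.2 and 31.7 TPM in Fgf18△HSC livers (log2 fold change -1.38, SE 0.10, limma adjusted p = 2.54e-05). The livers of each genotype were closely grouped. Of 26 partner genes of coagulation and fibrinolysis on a list, 9 were in the table, 2 of them called lower, 6 higher and 1 not called. Those lower were the hepatocyte genes F13b (66.2 ± 2.56 against 29.9 ± 2.49 TPM, SD, n = 3 livers each) and Hrg (559.6 ± 34.1 against 227 ± 20.1 TPM, SD, n = 3 livers each), and those higher were Thbs1, Thbd, Procr, Plat, Anxa2 and F13a1. F13b and Hrg are above 10 TPM, where 80.3% of listed genes were called lower, and the higher ones other than Thbs1 and Thbd are under 10 TPM, where 45.6 to 47.4% were called higher. Thbs1 and Thbd are above 10 TPM, where 14.6% were called higher. Vwf, a gene of endothelial cells, was not called (log2 fold change 0.83). The endothelial markers Lyve1, Gpr182 and Pecam1, 3 of 7 on the list, summed to 11.9 to 14.4 TPM in Fgf18 f/f livers against 26.5 to 38.8 TPM in Fgf18△HSC livers. Ppbp, the 1 of 4 platelet markers on a list that was in the table, was called higher (0.785 against 2.92 TPM). The monocyte markers Chil3 and Ccr2 were called higher too, with sums of 1.07 to 1.53 TPM against 4.01 to 12.02 TPM. Their part in these values was not tested.

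Apoa5 (chromosome 9, 46268633 to 46271919), an apolipoprotein that speeds the clearance of plasma triglyceride, had 501, 453 and 421 TPM in Fgf18 f/f livers against 169, 206 and 169 TPM in Fgf18△HSC livers (log2 fold change -1.34, SE 0.13, limma adjusted p = 5.86e-05). The other listed members of the group are of the apolipoprotein L family. Apol7a had 21.4, 21.9 and 22.4 TPM against 12.1, 9.08 and 9.10 TPM (log2 fold change -1.12, SE 0.14, limma adjusted p = 0.000185). Apol8 had 1.46, 1.63 and 1.15 TPM against 0.362, 0.0982 and 0.341 TPM (log2 fold change -2.13, SE 0.34, limma adjusted p = 0.000687), with the second knockout liver the lowest. These 2 were the only members whose values did not come out as whole reads with the annotation used. Of 24 lipoprotein partner genes on a list 3 were in the table, Lipg called lower and Gpihbp1 and Abcg1 called higher, all 3 from 1 to 10 TPM, where 43.2% of listed genes were called lower and 47.4% higher.

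Major urinary proteins are lipocalins that the mouse liver secretes in large amounts and that pass into the urine, where they bind pheromones. All 7 listed genes, which lie in a single cluster on chromosome 4, fell in Fgf18△HSC livers, with a wide spread between livers of a genotype. Of all listed genes, 80.3% were called lower at 10 TPM or more, the level of Mup8, Mup13, Mup14 and Mup15, and 43.2% from 1 to 10 TPM, the level of Mup6, Mup9 and Mup18. For the 4 at 10 TPM or more, the median coefficient of variation was 38.0% among Fgf18 f/f and 63.5% among Fgf18△HSC livers, beside 7.61 and 12.3% over the listed genes at that level. Mup14 (61300023 to 61304000) had 91.4, 212 and 871 TPM in Fgf18 f/f livers against 12.6, 46.9 and 12.7 TPM in Fgf18△HSC livers (log2 fold change -3.70, SE 0.81, limma adjusted p = 0.00283). The fold change moved with single livers: without the third Fgf18 f/f liver it was -2.82, without the first Fgf18 f/f liver -4.45 and without the second Fgf18△HSC liver -4.33. Mup15 (61435790 to 61439743) had the reverse order in the controls, 208, 163 and 65.5 TPM, against 10.997, 60.9 and 16.4 TPM (log2 fold change -2.55, SE 0.64, limma adjusted p = 0.00551), and -3.27 without the second Fgf18△HSC liver. The third Fgf18 f/f liver was therefore the highest for Mup14 and the lowest for Mup15.

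Mup13 (61224307 to 61228286) had 104, 167 and 116 TPM in Fgf18 f/f livers against 52.6, 68.3 and 51.2 TPM in Fgf18△HSC livers (log2 fold change -1.15, SE 0.20, limma adjusted p = 0.000874). Mup8 (60218621 to 60222599) had 33.7, 41.8 and 52.3 TPM against 16.9, 31.3 and 13.9 TPM (log2 fold change -1.10, SE 0.29, limma adjusted p = 0.00705). Neither kept a fold change beyond the limit in every set of 5 livers: Mup13 was at -0.95 without the second Fgf18 f/f liver, and Mup8 at -0.95 without the third Fgf18 f/f liver and -0.87 without the third Fgf18△HSC liver. Mup6, Mup9 and Mup18 were lower in level and had log2 fold changes of -1.42, -2.10 and -2.13. Mup9 had 1.62, 2.07 and 2.89 TPM in Fgf18 f/f livers against 0.418, 0.437 and 0.405 TPM in Fgf18△HSC livers (SE 0.23, limma adjusted p = 0.000103). Mup18 had 6.27, 3.72 and 11.2 TPM against 1.40, 2.60 and 0.706 TPM (SE 0.49, limma adjusted p = 0.00378). Mup copies are so alike that most of their 100-base stretches, from 69.4% in Mup8 to 97.3% in Mup15, occur in messages of 16 or 17 other genes, and reads on them cannot be told apart by sequence. The exception was Mup6, with no shared stretch. It had 9.79, 15.7 and 15.5 TPM in Fgf18 f/f livers against 4.05, 5.56 and 5.31 TPM in Fgf18△HSC livers (SE 0.21, limma adjusted p = 0.000469). Its groups did not overlap.

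**Figure D5:**
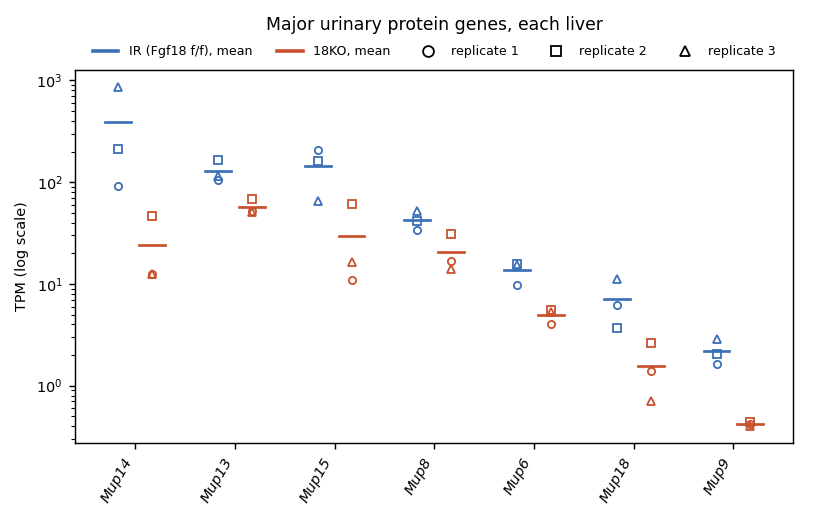
Level in each liver (TPM, log scale) of the 7 major urinary protein genes, ordered by mean, with bars for the means of 3 livers. The Fgf18 f/f livers (blue) spread from 91.4 to 871 TPM in Mup14, and in each gene they lie above the Fgf18△HSC livers (orange).

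IGF-binding proteins carry IGF in plasma and tissues and set how much of it reaches its receptor. Igfbp4 (chromosome 11, 99041244 to 99054392), the most abundant of the 4 listed, had 243, 244 and 226 TPM in Fgf18 f/f livers against 104, 96.4 and 87.9 TPM in Fgf18△HSC livers (log2 fold change -1.31, SE 0.11, limma adjusted p = 3.49e-05). Igfbp3 (chromosome 11, 7206086 to 7213923), which forms the large circulating complex with IGF and the acid-labile subunit, was the only one that rose. It had 1.84, 1.69 and 1.47 TPM against 5.45, 4.37 and 5.46 TPM (log2 fold change 1.55, SE 0.16, limma adjusted p = 7.72e-05), and 0.56 in the rescaled livers, where it did not pass. Igfbp5 had 0.703, 0.583 and 2.61 TPM against 0.249, 0.131 and 0.185 TPM (log2 fold change -2.005, SE 0.49, limma adjusted p = 0.00497). Igfbp6 had 0.537, 0.121 and 2.35 TPM against 0.520, 0.235 and 0.182 TPM, and was the only member whose groups overlapped (log2 fold change -0.85, SE 0.77, limma adjusted p = 0.302). Both were high in the third Fgf18 f/f liver, and without it the fold change was -1.38 for Igfbp5 and 0.049 for Igfbp6. Of 16 other genes of the IGF axis on a list, 5 were in the table, and 3 of them, Irs2, Ghr and Igfals, were called lower. All 3 have means above 10 TPM, where 80.3% of listed genes were called lower, so the count is not read as particular to the IGF axis. The growth hormone receptor Ghr had 50.5, 50.6 and 52.6 TPM in Fgf18 f/f livers against 24.7, 24.8 and 21.996 TPM in Fgf18△HSC livers (log2 fold change -1.10, SE 0.10, limma adjusted p = 5.62e-05). The acid-labile subunit Igfals had 27.0, 26.0 and 26.5 TPM against 12.01, 11.2 and 8.98 TPM (log2 fold change -1.31, SE 0.13, limma adjusted p = 7.62e-05). Igf1 itself, at 62.3 ± 5.43 and 31.6 ± 4.95 TPM (SD, n = 3 livers each), had a log2 fold change of -0.99 in limma and missed the limit on size. The receptor Igf1r missed it in the other direction, at 0.211 ± 0.00426 against 0.535 ± 0.177 TPM (SD, n = 3 livers each) and a log2 fold change of 0.99 in limma.

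Outside the families chosen by name, 5 of 33 other plasma protein genes of the liver on a list were in the table, Agt, Hrg, Fetub and A2m called lower and Afp called higher. Agt, Hrg and Fetub are above 10 TPM, where 80.3% of listed genes were called lower, and A2m and Afp are under 1 TPM, where 9.74% were called lower and 45.6% higher. Agt, the precursor of angiotensin, had 767, 725 and 796 TPM in Fgf18 f/f livers against 266, 337 and 252 TPM in Fgf18△HSC livers (log2 fold change -1.43, SE 0.13, limma adjusted p = 5.86e-05), with the second knockout liver again the highest of its group. Afp, the fetal counterpart of albumin, had 0.236 ± 0.0327 TPM and 0.813 ± 0.166 TPM (SD, n = 3 livers each), and limma put its log2 fold change at 1.43. C2cd6, which fits the naming rule only by its letters, had 0, 0 and 1 reads against 5, 3 and 5, at least 1.67-fold higher by the floor of 3 reads per library.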

How the data were processed

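RNA-seq was made from 6 mouse livers, 3 per genotype, one library each. According to the methods and the submitters' processing notes, the authors made strand-specific mRNA libraries from TRIzol-extracted RNA, trimmed reads with cutadapt 2.5, aligned them to GRCm38 (mm10) with HISAT2 2.1.0, counted them per gene with featureCounts 1.6.3 and compared the groups with DESeq2. The table the authors deposited holds TPM values per liver with no unit named. They were taken as TPM because value times joined exon length (GENCODE M21) is, for 92.0 to 92.2% of the values, a whole multiple of 1 step per liver within 0.02 reads, and the reciprocal of that step gives no whole number of reads for the library, as FPKM would. How the authors handled reads that fit several genes is not given in the sources used here. The deposited log2 fold changes and p-values of the authors' comparison were read only to find how the table had been filtered: no gene of 3201 had an absolute log2 fold change of 1 or less or a p of 0.05 or more.

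Members were the protein-coding genes whose symbols fit the families, and role groups were set by symbol. Up to 6 of the most abundant and up to 4 of the most changed members of each role group are given in every liver, except 2 members that are counted but not reported here, and others by range where few reads were found. The members and lists were chosen with earlier results of these data known. Groups were compared on log2(TPM + 0.1) with limma (version 3.58.1, R 4.3.3), its empirical Bayes step fitted with a trend on mean level, without a block or a filter, tested first on simulated data. Reads were recovered for 2933 genes and 44 of the 46 members in all livers. Where all Fgf18 f/f livers had at most 3 reads, the fold is a lower bound against 3 reads per library. Precision is limited by the reads on a gene, and library totals are unknown, so no interval was computed. P-values set the difference between genotypes against the spread between these livers. The genes had been filtered on the same difference, so the adjusted p does not control a false discovery rate. Tables were made in Python 3.11.15. Alternatives were other pseudocounts (1 and 0.01), a mean of at least 1 TPM, rescaled livers, no trend, protein-coding genes alone, no fold limit, an unadjusted p, the replicate number as a block, each liver left out, and limma-voom on recovered reads.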

Additional observations from a re-analysis of the deposited data

How the results depend on the processing

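The number of lower members, 31, changed little. Under the alternatives that kept all livers and genes, from 27 (pseudocount of 1) to 32 (rescaled livers, and no limit on the fold change) were called lower. When single livers were dropped, 28 to 31 were. Every listed gene had passed the authors' filter on these same livers, and rescaling moved fold changes down. Keeping most lower calls was thus largely set in advance and is no independent support. The number of higher members, 10, changed more. With a pseudocount of 1 they were 3, with rescaled livers 3, and among the 33 members with a mean of at least 1 TPM 4, the last because fewer genes were tested; dropping single livers gave 9 to 12. With a pseudocount of 0.01, 12 were higher, and with no limit on the fold change 13. Over all listed genes a pseudocount of 1 gave 266 higher and 566 lower, one of 0.01 gave 1995 higher and 1048 lower, rescaled livers 281 and 1115, a mean of at least 1 TPM 522 and 787, and no fold limit 2005 and 1108, beside 1333 and 961. A pseudocount of 1 ended the calls of 11 members (Apol8, C1qc, C1rb, C5ar2, Cfb, Igfbp5, Serpina3a, Serpina9, Serpinb8, Serpine2 and Serpine3) and rescaling those of 7. Rescaling shifted the fold changes of all genes by a median of -0.88 on the log2 scale. Apart from this shift and the number of genes tested, the cause was not tested. Direction turned for 2 members that were not called: C5ar1 was at -0.040 in rescaled livers, and Igfbp6 ranged from -1.69 without the second Fgf18 f/f liver, where it was called, to 0.049 without the third. Limma-voom on recovered reads called 12 higher and 30 lower of 44 members.

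The numbers 1 to 3 in the labels are shared by both genotypes, whose animals differ. Deviations of same-numbered livers from their group means correlated with r from 0.0060 to 0.0574 across genes. Livers of different number were not compared, and with 3 livers per genotype this cannot show whether same-numbered livers shared a day or batch. The numbers were not used as pairs in the main comparison. With the replicate block, 10 members were higher and 31 lower, and no call of a member changed. Reads limit the members under 1 TPM, such as Serpina3a and C2cd6, with at most 7 reads in any liver.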
